A study of Mus musculus with 6 samples.

Results

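The genes described here are 10 components of the Notch pathway: the receptors Notch1, Notch2, Notch3 and Notch4, the ligands Jag1 and Dll4, and the target genes Hes1, Hey1, Hey2 and Heyl. They were chosen by name, with earlier results of these data known. All 10 were among the 18687 genes with at least 1 unique molecular identifier (UMI, a count of 1 captured RNA molecule) in the study. The study sequenced single cells of the mouse aortic root in 6 libraries, made from 3 genotypes and 2 sorted fractions. Every animal was male and 24 weeks old, and 4 animals per genotype were pooled before sorting, so each group was 1 library. Fluorescent tdTomato, carried in all groups, separated the traced smooth muscle cell (SMC) lineage (lineage-positive) from the other cells (lineage-negative).

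The control libraries came from littermates labelled control for both Fbn1 and Klf4. The Marfan libraries carried the Fbn1 C1041G/+ genotype, a missense change in the fibrillin-1 gene on 1 chromosome that models Marfan syndrome, with control Klf4. The remaining pair carried the same Fbn1 genotype with Klf4 labelled floxed, which the series describes as an induced deletion in SMCs. That pair is named by its label throughout. The sources used here give neither the recombinase with its promoter nor the inducing agent. Animals within a pool cannot be told apart. No value below therefore has a replicate error, no test was run, and every ratio compares libraries rather than conditions. All intervals are 95% intervals that cover counting error only.

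Notch receptors sit in the cell membrane and are cut after they bind a Jagged or Delta ligand on a neighbouring cell. The freed intracellular part enters the nucleus, joins the DNA-binding protein RBPJ and switches on Hes and Hey genes, which encode transcriptional repressors. In arteries, Notch3 is best known from SMCs and pericytes, Notch1, Notch4 and Dll4 from endothelium, and Jag1 from both the endothelial and the SMC side of the wall.

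Promoter sequences were found for 7 of the 10 genes in the RefSeq table of mouse build GRCm38.p6, and the 250 bases before each start were searched on both strands. The core bound by RBPJ was searched as GTGGGAA, which on the other strand reads TTCCCAC. A site bound by Hes and Hey proteins was searched as CACGCG, which on the other strand reads CGCGTG. The RBPJ core was present in 5.42% of 32851 promoters of the same length and in 1 of the 7 genes, Hey2. The Hes and Hey site was present in 7.62% of those promoters and in 3 of the 7 genes, Dll4, Jag1 and Notch2. A match describes letters only and is no evidence of binding. The stretch before Hey2 (chr10:30842802-30843033, minus strand) is shown because Hey2 was lower in Marfan than in control in SMCs, fibroblasts and endothelial cells, with the RBPJ letters in capitals 207 bases before the RefSeq start. The shorter windows show the Hes and Hey letters, in capitals, before the ligand and receptor genes. They lie at chr2:119325574-119325609 (plus strand) for Dll4, at chr2:137116671-137116706 and chr2:137116749-137116770 (minus strand) for Jag1, and at chr3:98013481-98013516 (plus strand) for Notch2. In the GENCODE M21 annotation of build mm10, all of these windows lie outside the transcribed gene, on its upstream side.
Hey2: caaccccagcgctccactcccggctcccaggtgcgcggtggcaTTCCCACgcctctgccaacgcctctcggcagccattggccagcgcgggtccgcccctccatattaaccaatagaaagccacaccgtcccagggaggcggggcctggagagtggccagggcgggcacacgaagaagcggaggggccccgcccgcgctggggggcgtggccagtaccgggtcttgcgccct
Dll4: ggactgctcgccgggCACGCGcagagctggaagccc
Jag1 near: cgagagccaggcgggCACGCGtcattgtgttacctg
Jag1 far: cCGCGTGttgagaagaggtggc
Notch2: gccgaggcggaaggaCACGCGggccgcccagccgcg

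In the same annotation all 10 genes are protein-coding. Notch1 lies at chr2:26457903-26516663, Jag1 at chr2:137081456-137116644 and Hey2 at chr10:30832359-30842801, all on the minus strand. Notch3 lies at chr17:32120820-32166852 on the minus strand and Heyl at chr4:123233556-123249875 on the plus strand.

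The libraries held 47750360 to 95250397 UMIs. The Marfan lineage-positive library stood apart from the other 5 before any gene was examined. It had 22905 barcodes with a median of 1225 UMIs, and 39.0% of its barcodes held fewer than 1000 UMIs. The other libraries had 5167 to 8943 barcodes, medians of 8426.5 to 10307 UMIs, and 4.44% to 7.01% of barcodes below that minimum. Any pair of libraries shared 9 to 60 barcode sequences, at most 0.671% of the smaller library. Klf4 itself was at 24.4 CPM (counts per 1000000 UMIs) in SMCs of the control library, 41.5 CPM in Marfan and 113 CPM in the Klf4-floxed-labelled library. The targeted gene was thus highest where the label names a floxed allele. Reads here lie near the 3′ end and the sources used here do not name the floxed exons, so this level does not check the label.

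Each Notch gene had its own spread over cell classes, which were clusters named from marker genes after the Notch genes had been taken out of the clustering. Levels of different genes are not compared. Notch1 was highest in endothelial cells, at 251, 137 and 163 CPM in control, Marfan and the Klf4-floxed-labelled library, against 3.96 to 5.70 CPM in lineage-positive SMCs. Notch3 was near the floor in endothelial cells (0.81 to 1.61 CPM) and in macrophages (0.857 to 1.72 CPM). It was at 17.2 to 23.1 CPM in SMCs and 16.8 to 39.5 CPM in fibroblasts. Its highest level, 342 and 424 CPM, was in the lineage-positive cells of a cluster that joined mesothelial and Rgs5-expressing, pericyte-like cells, in Marfan and in the Klf4-floxed-labelled library. Notch2 was detected in every class of at least 50 cells. It reached 143 CPM in the 201 neutrophil-like cells of the Marfan library.

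The ligands separated more sharply. Dll4 had 0 UMIs in SMCs of the control library and of the Klf4-floxed-labelled library, where 3 counts would be 0.0525 and 0.0391 CPM, and 2 UMIs in Marfan. In endothelial cells it was at 22.5, 18.5 and 20.6 CPM. Vascular endothelial-like cells made up 0.943%, 2.29% and 2.08% of the lineage-negative libraries and held 39.6%, 54.8% and 49.2% of their Dll4 UMIs. These shares depend on the clustering: cluster 16, used here, held 41 control cells, whereas the finer clustering described below put 80 and 31 control cells in its 2 vascular endothelial-like clusters. Of the 48 lineage-negative Dll4 UMIs of control, the unnamed clusters 5 and 9 (described below) held 6 and 12, at 0.670 and 2.34 CPM. They held 2 and 0 of 62 in Marfan and 3 and 3 of 61 in the Klf4-floxed-labelled library. Jag1, by contrast, was present in SMCs, fibroblasts and endothelial cells, and fibroblasts held 65.7%, 57.5% and 64.5% of its lineage-negative UMIs.

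Among the targets, Heyl was a gene of SMCs and fibroblasts, and Hey2 one of SMCs and endothelium. Heyl was at 51.7 to 91.7 CPM in SMCs and 64.9 to 100 CPM in fibroblasts, and at most 2.38 CPM in endothelial cells and macrophages. Hey2 was at 29.7 to 42.5 CPM in SMCs and 40.1 to 88.3 CPM in endothelial cells, with 9.44 to 15.7 CPM in fibroblasts. Over these 4 classes Hes1 ranged from 32.2 CPM in macrophages to 259 CPM in endothelial cells. Droplet libraries hold free RNA, so the share of cells with a UMI was set beside a class that should lack the gene. In SMCs 56.6%, 21.9% and 54.3% of cells had a Heyl UMI, against 0.995%, 1.69% and 0.713% of macrophages, at median depths of 11439, 2082 and 13067 UMIs in SMCs and 10583.5, 9522.5 and 8742 in macrophages. After every cell was thinned to 2000 UMIs, the SMC shares were 15.9%, 10.2% and 14.0%, and those of macrophages 0.506%, 0.193% and 0.243%. Thinning left out 119, 5177 and 136 SMCs, and 7, 28 and 19 macrophages.

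The sort fractions were also compared whole. For Hey2 the lineage-positive library exceeded its lineage-negative partner by 3.57-fold in control, 4.13-fold in Marfan and 4.25-fold in the genotype labelled Klf4-floxed. Heyl was 1.59-fold to 1.80-fold higher and Notch3 1.44-fold to 1.81-fold higher on the lineage-positive side. Notch1 was lower there by 9.42-fold, 5.06-fold and 6.75-fold, and Hes1 by 2.50-fold, 1.68-fold and 2.37-fold. In a pool of cells, fewer cells of a type and less RNA per cell cannot be told apart in such ratios.

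**Figure D1:**
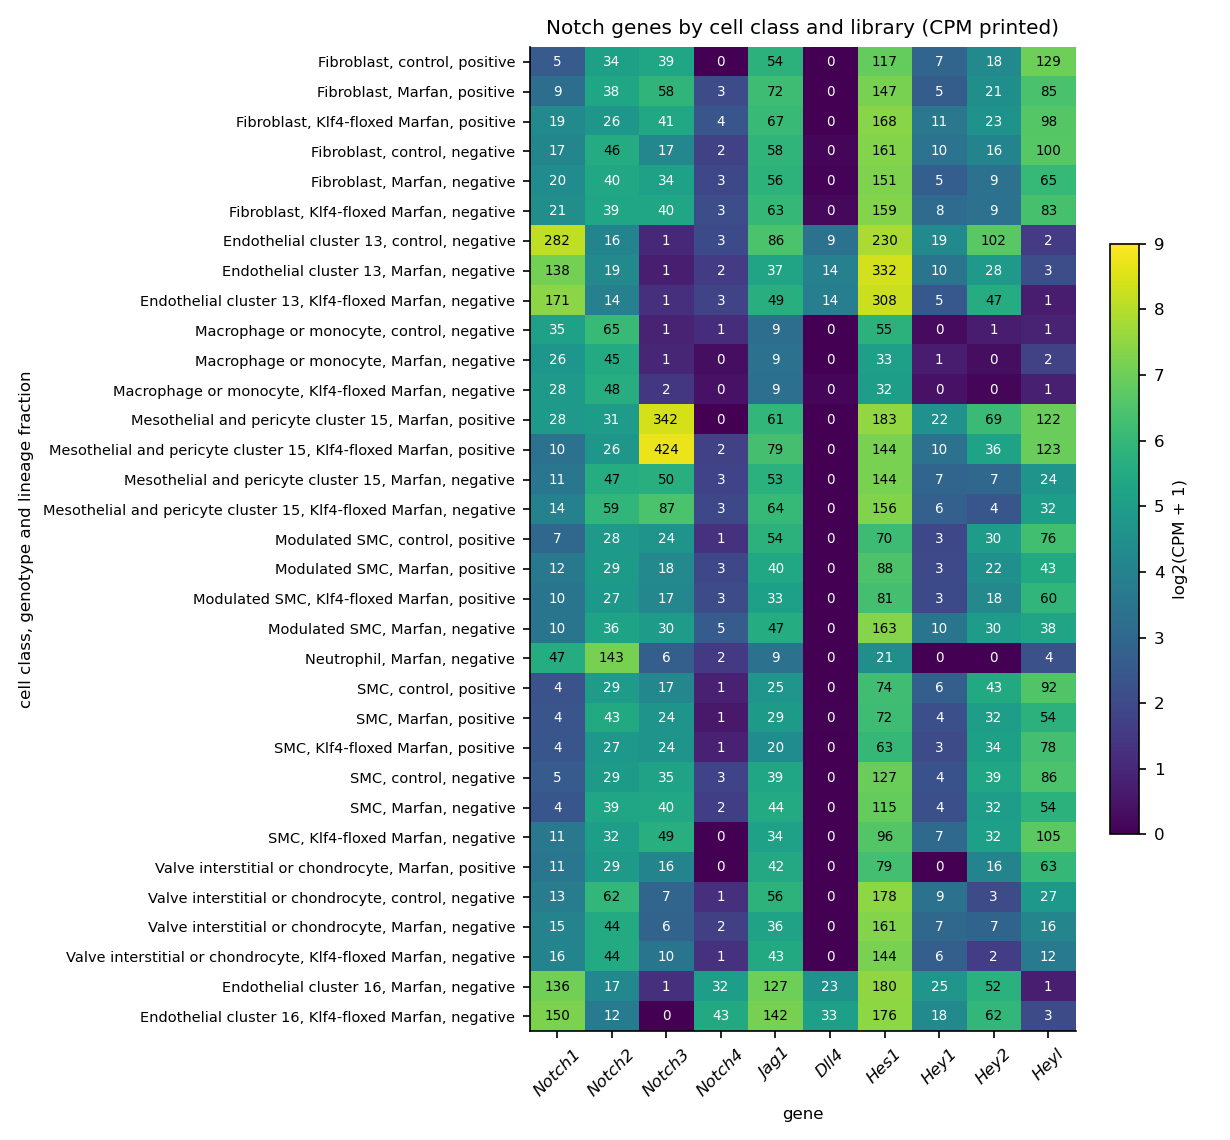
Level of each gene (columns) in each named cell class, genotype and sort fraction of at least 50 cells (rows). Unnamed clusters are not shown. The printed number is CPM and the colour is log2(CPM + 1). Notch1 is high in both endothelial clusters and Notch3 in the lineage-positive cells of cluster 15. Among the classes shown, Dll4 is at or near 0 outside the endothelium.

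In SMCs of the Marfan library Heyl and Hey1 were lower than in control by at least the 1.5-fold used here as the limit for a call, and no receptor or ligand with at least 5 CPM was that far apart. Heyl, a Notch-induced repressor of the vessel wall, was at 91.7 CPM in control (interval 89.2 to 94.2), 51.7 CPM in Marfan (49.95 to 53.4) and 74.3 CPM in the Klf4-floxed-labelled library (72.4 to 76.3). Marfan was thus lowest and the Klf4-floxed-labelled library lay between, with no overlap of the intervals. Heyl was 1.77-fold lower in Marfan than in control (log2 ratio -0.83, interval -0.89 to -0.76). Hey1 was at 5.53, 3.46 and 3.25 CPM, 1.60-fold lower in Marfan than in control (log2 -0.68, interval -0.93 to -0.43). Hey2 was at 42.5, 29.7 and 30.4 CPM, a log2 ratio of -0.52 (interval -0.60 to -0.43) between Marfan and control. Its levels in the libraries with the Fbn1 allele were alike within 0.03 on the log2 scale. Hes1 stood apart from the Hey genes, at 73.7, 75.5 and 67.1 CPM.

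Among the receptors, Notch2 was at 29.4 CPM in control (interval 28.0 to 30.8), 40.2 in Marfan (38.7 to 41.8) and 26.8 in the Klf4-floxed-labelled library (25.6 to 27.9). Notch3 was at 17.2, 23.1 and 22.6 CPM, and Notch1 at 3.96, 5.68 and 5.70 CPM. Over the whole class the log2 ratios to control of Marfan and of the Klf4-floxed-labelled library were 0.42 and 0.39 for Notch3, and 0.52 and 0.53 for Notch1. Within clusters Notch1 had no single direction. It was below control in 3 of 5 clusters in either library (in Marfan log2 -1.14, -0.43 and -0.32 in clusters 0, 1 and 2, all with intervals that included 0). It was above control in clusters 3 and 6, and the interval lay above 0 in cluster 3 alone (0.56 in Marfan and 0.68 in the Klf4-floxed-labelled library). Jag1 was at 25.8, 31.2 and 22.7 CPM, but without cluster 0 Marfan differed from control by log2 0.03. Notch4, at 0.77 to 1.33 CPM, and Dll4 were under the level of 5 CPM that was required for a call.

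A gene was counted as apart between 2 libraries at a fold of 1.5 or more with at least 5 CPM in the higher one. For Marfan against control in SMCs this held for 2 of the 8 Notch genes at that level, Hey1 and Heyl, both lower. Among all 9399 genes, 6.32% were apart by the same rule. The median log2 ratio was 0.16 for the Notch genes and -0.08 for all genes. For the Klf4-floxed-labelled library against Marfan, 1 of 7 was apart, Notch2 (log2 -0.59, interval -0.67 to -0.51), against 0.927% of all genes. Heyl differed by 0.52 (0.46 to 0.59) and Jag1 by -0.46 (-0.56 to -0.37) without reaching the fold. For the Klf4-floxed-labelled library against control, 1 of 8 was apart, Hey1 (log2 -0.77, interval -1.01 to -0.52), against 5.68% of all genes. The 3 comparisons share libraries in pairs and are not independent.

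**Figure D2:**
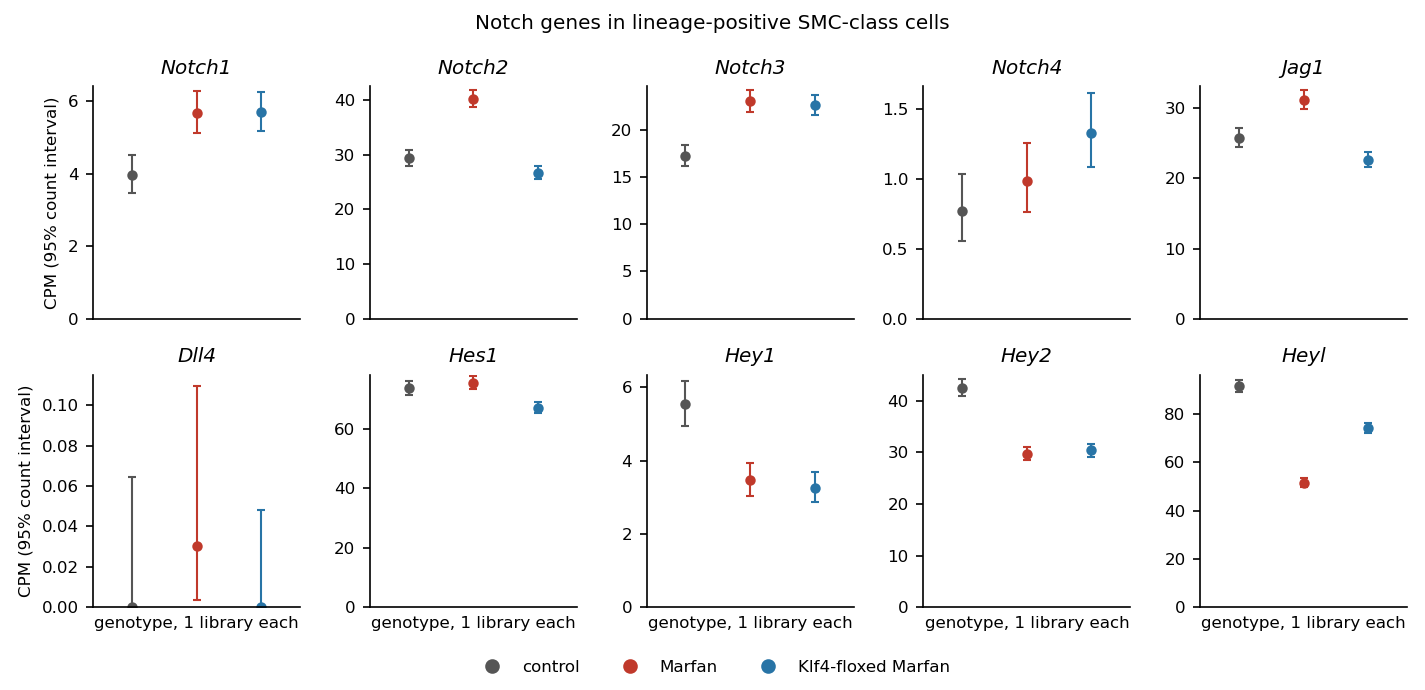
CPM of the 10 genes in SMCs of the lineage-positive libraries, 1 point per library with its 95% counting interval. Heyl is lowest in Marfan (51.7 CPM), Hey2 is lower in both libraries with the Fbn1 allele, and Notch2 is highest in Marfan (40.2 CPM).

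Different clusters held most SMCs of each library: cluster 1 in control (3137 of 5057 cells), cluster 0 in Marfan (5921 of 10652) and cluster 2 in the Klf4-floxed-labelled library (2183 of 5759). Within clusters, the Heyl difference had the same direction throughout. It was lower in Marfan than in control in 5 of 5 clusters with cells in both, by log2 -0.72 to -0.27, with 4 intervals below 0. It was higher in the Klf4-floxed-labelled library than in Marfan in 6 of 6 clusters, by 0.34 to 0.64, with 5 intervals above 0. Against control, the Klf4-floxed-labelled library was higher in 3 clusters and lower in 2. In cluster 3, where Heyl was highest, the levels were 119 CPM in control, 85.7 CPM in Marfan and 124 CPM in the Klf4-floxed-labelled library. Hey2 was lower in Marfan than in control in 5 of 5 clusters (log2 -0.44 to -0.06, 3 intervals below 0). Hey1 was also lower in 5 of 5, but with only 1 interval below 0.

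The Notch2 and Jag1 levels of Marfan stood out in 1 cluster. In cluster 0, Notch2 was at 35.1 CPM in control, 95.3 CPM in Marfan and 33.5 CPM in the Klf4-floxed-labelled library, while the other SMC clusters ranged from 24.8 to 36.9 CPM in all libraries. Jag1 in cluster 0 was at 30.9, 60.6 and 16.4 CPM, whereas in cluster 6 it was at 54.6, 39.1 and 32.7 CPM. Marfan was below control for Jag1 in clusters 1, 2 and 6 (log2 -0.11, -0.51 and -0.48, the last 2 with intervals below 0). The Klf4-floxed-labelled library was below control for Jag1 in 5 of 5 clusters, with 4 intervals below 0. The Marfan cells of cluster 0 had a median of 1357 UMIs, against 1987 for the 169 control cells and 4125 for the 273 cells of the Klf4-floxed-labelled library. Without cluster 0, a setting chosen after the data were seen, Notch2 differed by log2 0.07 between Marfan and control, by -0.21 between the Klf4-floxed-labelled library and Marfan, and was no longer called. The part of shallow cells in the Notch2 level was not tested beyond this.

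Notch3 and Hes1 differed by cluster. In cluster 3, a Tnnt2-led SMC cluster, Notch3 was at 26.4, 43.0 and 43.0 CPM (log2 0.70 for Marfan against control, interval 0.50 to 0.91). In cluster 2 it was at 20.2, 18.4 and 20.2 CPM. Hes1 stood above control in the libraries with the Fbn1 allele in cluster 3 (92.3, 106 and 121 CPM) and below it in cluster 1 (66.8, 56.5 and 43.2 CPM) and cluster 2 (73.9, 65.3 and 47.9 CPM), so the near-equal class totals joined opposite differences.

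**Figure D3:**
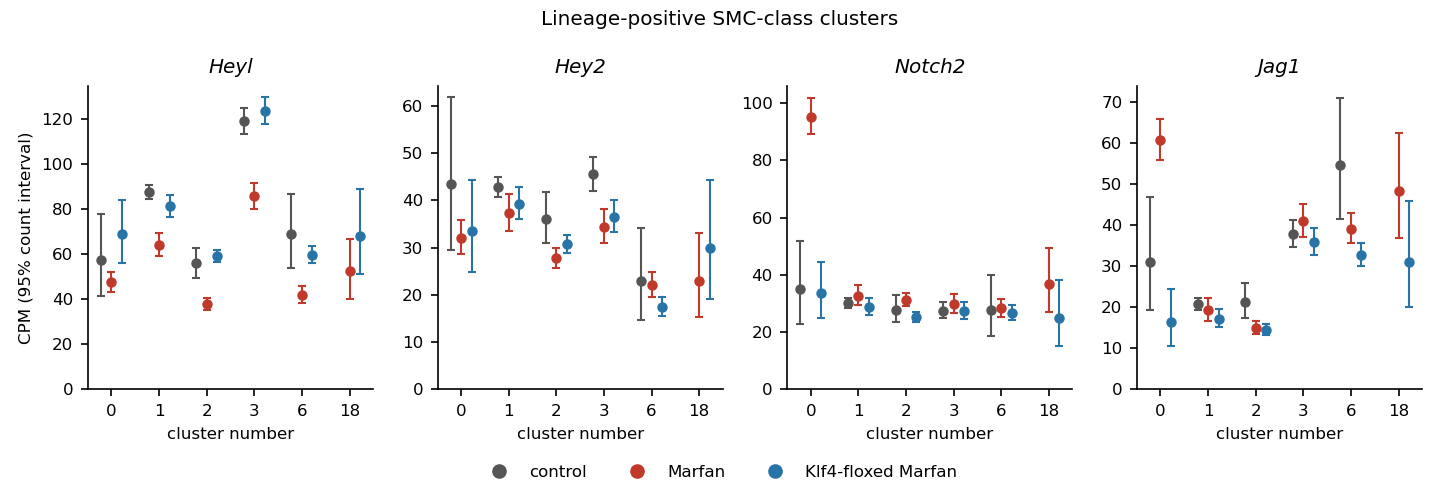
CPM of Heyl, Hey2, Notch2 and Jag1 in each lineage-positive SMC cluster (horizontal axis, cluster number), 1 point per library with its 95% counting interval. Heyl is lowest in Marfan in every cluster, whereas the high Notch2 of Marfan (95.3 CPM) is seen in cluster 0 alone.

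Markers of other cells moved with genotype in the same SMCs. The summed level of 10 modulated SMC markers was 573, 3229 and 2856 CPM, that of erythroid markers 2.64, 70.2 and 27.8 CPM, and that of pericyte markers, with 6 of 7 detected in control, 361, 267 and 287 CPM. The 8 vascular endothelial markers summed to 12.2, 6.09 and 4.36 CPM, with Tie1 at 0 in control and Cdh5 and Tie1 at 0 in the Klf4-floxed-labelled library. SMC markers themselves summed to 47114, 49437 and 44255 CPM. The part of these differences in the Notch values was not tested. Thinning each cell to 2000 UMIs left Heyl lower in Marfan than in control (log2 -0.65), and turned Hey1 to 0.09.

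Clusters 6 and 18, led by genes such as Mgp, Fn1 and Iigp1 and named modulated SMC-like, held 108 cells in control, 1011 in Marfan and 1108 in the Klf4-floxed-labelled library. Modulated SMCs have lost part of their contractile programme and gained matrix and inflammatory genes. Notch1 was higher in them than in the other SMCs of the same library: 7.19 against 3.87 CPM in control, 11.5 against 4.23 in Marfan, and 10.3 against 4.36 in the Klf4-floxed-labelled library. The log2 differences were 0.89 (interval -0.19 to 1.80, from 10 UMIs in the modulated cells), 1.45 (1.14 to 1.75) and 1.24 (0.96 to 1.52). Jag1 was also higher in modulated cells in every library (53.9 against 25.1, 40.0 against 29.1 and 32.6 against 19.8 CPM). Hey2 went the other way, at 30.2 against 42.8, 22.2 against 31.6 and 18.1 against 33.9 CPM, and Heyl was lower in modulated cells too (log2 -0.27, -0.33 and -0.38). Notch3 was higher in modulated cells in control (log2 0.52) and lower in the others (-0.43 and -0.50). Hes1 differed by -0.07, 0.27 and 0.36, and Notch2 by -0.07, -0.56 and -0.01. The other SMCs of Marfan included the 5921 cells of cluster 0, in which Notch2 and Jag1 stood out. The Marfan differences of these genes thus depend on that cluster, and they were not recomputed without it.

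By the same rule of size, 3 of the Notch genes were apart between modulated and other SMCs in control (Notch1, Jag1 and, lower, Hey1), 1 in Marfan (Notch1) and 3 in the Klf4-floxed-labelled library (Notch1, Jag1 and, lower, Hey2). All genes were apart in 24.7%, 18.9% and 19.9% of cases. The Marfan count also includes cluster 0 among the other SMCs. Notch4 was too low to be called, but modulated cells, 9.25% of the lineage-positive cells in Marfan and 18.4% in the third genotype, held 49.3% and 49.6% of its UMIs there. They held 35.1% and 36.0% of the Notch1 UMIs. Of the UMIs of all genes, modulated cells held 12998704 of 68158357 in Marfan and 17280938 of 79109288 in the third genotype. In Marfan the modulated cells were much deeper, with a median of 12492 UMIs against 1859 in the other SMCs. In control the medians were 12572 and 11412.

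A wider list of 52 pathway genes (receptor-modifying enzymes, secretase subunits, co-activators, co-repressors and other ligands) was counted in the same way in SMCs. For Marfan against control, 1 of 36 measured genes was higher and 0 lower, against 6.32% of all genes. This was Jag2, a further ligand, at 3.62 CPM in control and 5.46 in Marfan (log2 0.59, interval 0.34 to 0.85). The next by size were Tle2 (-0.43), Aph1b (-0.35) and Hes6 (-0.31). For the Klf4-floxed-labelled library, 0 of 36 were apart from Marfan (0.927% of all genes) and 0 of 36 from control (5.68% of all genes). The largest differences from Marfan there were those of Ncstn (0.25), Tle2 (0.24), Hes6 (0.23) and Adam17 (-0.21). Those from control included Jag2 (0.51), Kat2a (-0.44) and Ncstn (0.36). A list of 16 arterial endothelial genes had 9 measured in SMCs, of which 2 were higher and 1 lower in Marfan than in control, against 6.32% of all genes apart. In the Klf4-floxed-labelled library, 5 of 9 were higher and 2 lower than in control, against 5.68% of all genes. From Marfan 0 of 8 were apart there, against 0.927%.

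In lineage-negative fibroblasts Notch3 was higher in Marfan than in control and the Hey genes were lower. Notch3 was at 16.8 CPM in control (interval 15.02 to 18.7), 34.5 in Marfan (32.3 to 36.7) and 39.5 in the Klf4-floxed-labelled library (36.9 to 42.2). Both libraries with the Fbn1 allele lay above control without overlap, by 2.05-fold and 2.35-fold (log2 1.04, interval 0.85 to 1.22, and 1.23, interval 1.05 to 1.42). Heyl was at 100, 64.9 and 82.5 CPM, lowest in Marfan (log2 -0.63, interval -0.72 to -0.54). Cluster 7, where Heyl was low, held 505 of 2090 fibroblasts in control and 1016 of 2581 in Marfan, and the class ratio of Heyl exceeded that in each cluster (log2 -0.62, -0.17 and -0.29 in clusters 4, 7 and 8). Hey1 was at 9.76, 5.47 and 7.95 CPM and Hey2 at 15.7, 9.45 and 9.44 CPM. Notch1 (16.6, 19.7 and 20.9 CPM), Notch2 (45.6, 40.2 and 38.8 CPM), Jag1 (58.2, 55.5 and 63.0 CPM) and Hes1 (161, 151 and 159 CPM) were each apart by less than the 1.5-fold used below as the limit for a call. Notch4 was at 2.36, 2.90 and 3.37 CPM and Dll4 at 0.135 CPM or less.

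For Marfan against control in fibroblasts, 4 of 8 Notch genes were apart (Notch3 higher, and Hey1, Hey2 and Heyl lower), against 6% of all 10079 genes. Hey2 and Heyl were no longer called with clusters weighted equally, with a minimum of 500 or 4000 UMIs, with a mitochondrial limit of 5% or 20%, or at resolution 0.5, which left 2 of the 4. In these settings of UMIs, mitochondrial limit and resolution, the fibroblasts also took in a cluster of 3644 to 4787 cells. Its top genes, among them Prg4, Dpt and Vcan, were like those of cluster 5, which is unnamed in the main setting. The part of this change in the class was not tested. With the sort fractions clustered apart Hey2 alone was called. For the Klf4-floxed-labelled library against Marfan it was 0 of 8, against 3.08%, with Hey1 at log2 0.54 and Heyl at 0.35. Against control it was 2 of 8 (Notch3 higher and Hey2 lower), against 5.37%. The fibroblasts comprised clusters 4, 7 and 8. Notch3 was higher in Marfan than in control in 3 of 3 clusters, by log2 1.51, 0.75 and 1.02, each with its interval above 0. In cluster 4, with 1094 to 1129 cells per library, it was at 14.6 CPM in control, 41.6 CPM in Marfan and 36.1 CPM in the Klf4-floxed-labelled library. Heyl, Hey1 and Hey2 were below control in Marfan in 3 of 3 clusters, but with intervals below 0 in only 2, 2 and 1 of them. In cluster 7 all 3 intervals included 0.

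**Figure D4:**
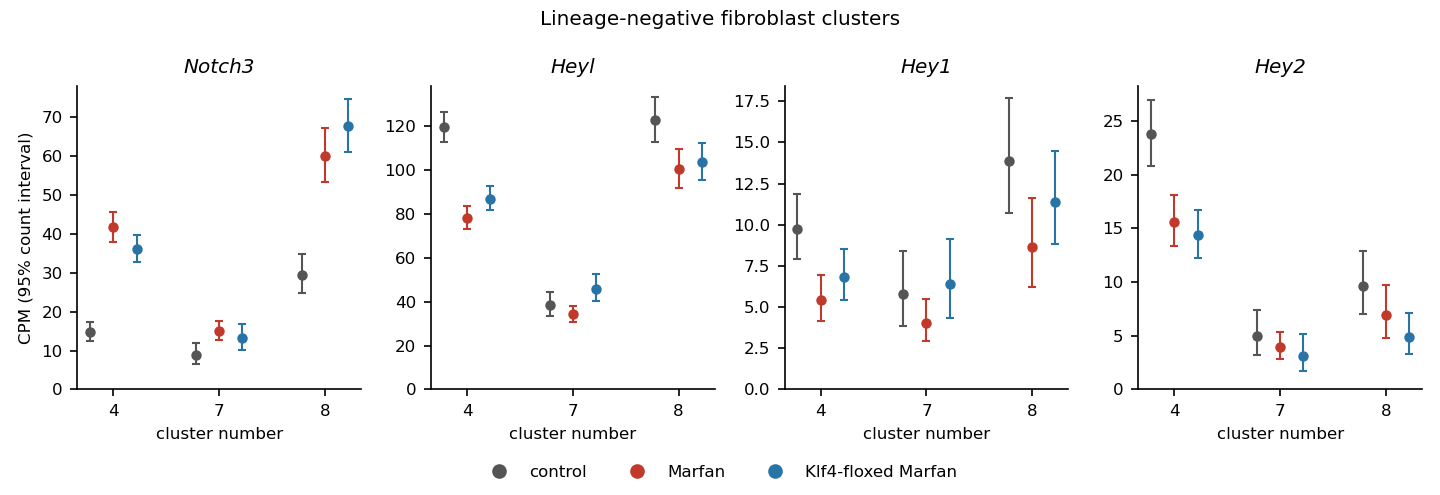
CPM of Notch3, Heyl, Hey1 and Hey2 in the lineage-negative fibroblast clusters 4, 7 and 8, 1 point per library with its 95% counting interval. Notch3 in control lies below both libraries with the Fbn1 allele in each cluster, and Heyl is highest in control in clusters 4 and 8.

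Fibroblasts held 72.0%, 74.6% and 78.1% of the lineage-negative Notch3 UMIs, while making up 48.1%, 36.7% and 37.7% of the cells. In a clustering of each sort fraction on its own, the Marfan difference of Notch3 was log2 0.32 and was not called, and that of the Klf4-floxed-labelled library was 0.80. Summed markers of cells that also express Notch3 were 987, 1290 and 1639 CPM for SMCs and 648, 531 and 676 CPM for pericytes, with Higd1b at 0 in control and Marfan. Immediate early genes, a sign of dissociation, summed to 6654, 8538 and 9308 CPM. Their part in the Notch3 difference was not tested.

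In the wider list, 0 of 38 measured genes were higher and 2 lower in fibroblasts of Marfan than in control, a share near the 6% of all genes. Dtx1, an E3 ligase of the Deltex family that binds Notch, was at 11.8 CPM in control and 4.54 in Marfan (log2 -1.38, interval -1.71 to -1.06), and 6.25 CPM in the Klf4-floxed-labelled library. Dner, a Notch-binding membrane protein, was at 7.04, 4.28 and 1.30 CPM. The same 2 genes were the ones apart in the Klf4-floxed-labelled library against control (log2 -0.92 for Dtx1 and -2.43 for Dner), and none of 37 was apart from Marfan. Tle3, a co-repressor, was lower than control by 0.49 in Marfan and by 0.36 in the Klf4-floxed-labelled library, on the log2 scale. The list's median log2 ratio was -0.12 for Marfan against control, beside -0.05 for all genes.

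In endothelial cells Notch1 and Hey2 were lower in Marfan than in control. The class held 179, 376 and 331 cells, from clusters 13 and 16, named lymphatic and vascular endothelial-like. The name of cluster 13 is coarse: it held 138 control cells with Hey2 at 102 CPM. The finer clustering below put 68 control cells, with Hey2 at 0 CPM, in its lymphatic endothelial-like cluster. Notch1 was at 251 CPM in control, 137 CPM in Marfan and 163 CPM in the Klf4-floxed-labelled library. Control was highest, and Marfan was 1.83-fold lower (log2 -0.87, interval -1.09 to -0.65). A Notch1 UMI was found in 76.0%, 56.4% and 61.6% of the cells, and in 44.0%, 27.5% and 28.0% after thinning to 2000 UMIs. Before thinning it was found in 4.21%, 3.15% and 6.77% of SMCs, which came from the lineage-positive libraries. Hey2 was at 88.3, 40.1 and 52.6 CPM (log2 -1.14, interval -1.53 to -0.75, for Marfan against control). Jag1 (101, 82.1 and 83.8 CPM), Dll4 (22.5, 18.5 and 20.6 CPM), Notch4 (15.3, 17.2 and 17.8 CPM), Notch2 (12.8, 18.2 and 13.4 CPM) and Hes1 (231, 256 and 259 CPM) had ratios to control whose intervals included 0. Hey1 was at 17.7, 17.5 and 9.72 CPM, lower in the Klf4-floxed-labelled library than in the other two, with an interval against control that reached 0.04 on the log2 scale.

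For Marfan against control, 2 of 8 Notch genes were apart in endothelial cells, Notch1 and Hey2, both lower, but 24.1% of all genes were apart too. For the Klf4-floxed-labelled library against Marfan it was Hey1, 1 of 8, against 12.4%. Against control it was Notch1, Hey1 and Hey2, 3 of 8, against 21.4%. The first 2 of these counts are near the background share. Over all genes the median log2 ratio of Marfan to control was -0.12.

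Clustering the lineage-negative fraction on its own split the endothelium into 3 clusters, which held different Notch genes. A Ccl21a-led, lymphatic endothelial-like cluster (68, 184 and 143 cells) had Notch1, Hes1 and Dll4, but Hey2 at 0, 0.782 and 0 CPM, where 3 counts would be 7.87, 2.35 and 2.94 CPM. A Pecam1-led cluster, vascular endothelial-like by the marker lists (80, 108 and 133 cells), had the highest Hey2 of the 3, at 159, 86.9 and 113 CPM. It had 0 Dll4 UMIs in control, where 3 counts would be 4.58 CPM, and 6.84 and 2.78 CPM in the other libraries. In control its Dkk2, Prox1 and Fabp4 were at 353, 131 and 206 CPM, against 90.9, 0 and 9010 CPM in the Fabp4-led cluster. The marker lists held no class of valve endothelium, so the name does not set the cluster apart from that type. A Fabp4-led, vascular endothelial-like cluster (31, 84 and 55 cells) had the most Dll4, at 90.9, 41.8 and 73.2 CPM, and Notch4, at 62.2, 52.3 and 67.8 CPM.

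Notch1 was lower in Marfan within both larger clusters. It was at 236, 128 and 147 CPM in the Ccl21a-led cluster (log2 -0.88, interval -1.26 to -0.49, for Marfan against control) and 293, 155 and 186 CPM in the Pecam1-led cluster (log2 -0.92, interval -1.23 to -0.61). In the Fabp4-led cluster it was at 148, 131 and 141 CPM, with an interval that included 0. Hey2 in the Pecam1-led cluster was lower in Marfan (log2 -0.87, interval -1.29 to -0.45), as was Jag1, at 114, 75.2 and 94.5 CPM (log2 -0.61, interval -1.08 to -0.13). In the Fabp4-led cluster Hey2 was at 28.7, 41.8 and 21.7 CPM (log2 0.54, interval -0.76 to 2.11, for Marfan against control). The Ccl21a-led, Pecam1-led and Fabp4-led clusters held 68, 80 and 31 cells in control and 184, 108 and 84 in Marfan. The part of this mix in the Hey2 ratio of the whole class was not tested.

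Hey1 was heterogeneous. It was at 23.6, 6.25 and 3.91 CPM in the Ccl21a-led cluster and 19.1, 55.2 and 46.1 CPM in the Fabp4-led cluster, so that Marfan was lower than control in one (log2 -1.92, interval -3.49 to -0.37) and higher in the other (log2 1.53, interval 0.05 to 3.48). Dll4 in the Fabp4-led cluster was lower in Marfan than in control (log2 -1.12, interval -2.01 to -0.20). These values rest on few cells in control. Within the same clusters other genes also differed between libraries: Ccl21a itself was at 7457, 3654 and 3507 CPM in its cluster, and Prox1 at 131, 27.3 and 80.6 CPM and Dkk2 at 353, 93.7 and 219 CPM in the Pecam1-led cluster. Their part, and that of a changed mix of cells within a cluster, in the Notch values was not tested. In the whole class the 6 lymphatic endothelial markers summed to 3689, 2901 and 2812 CPM and the 8 vascular ones to 4682, 5327 and 5431 CPM. The 9 SMC markers summed to 164, 648 and 204 CPM, with Myocd and Actg2 at 0 in control and in the Klf4-floxed-labelled library.

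**Figure D5:**
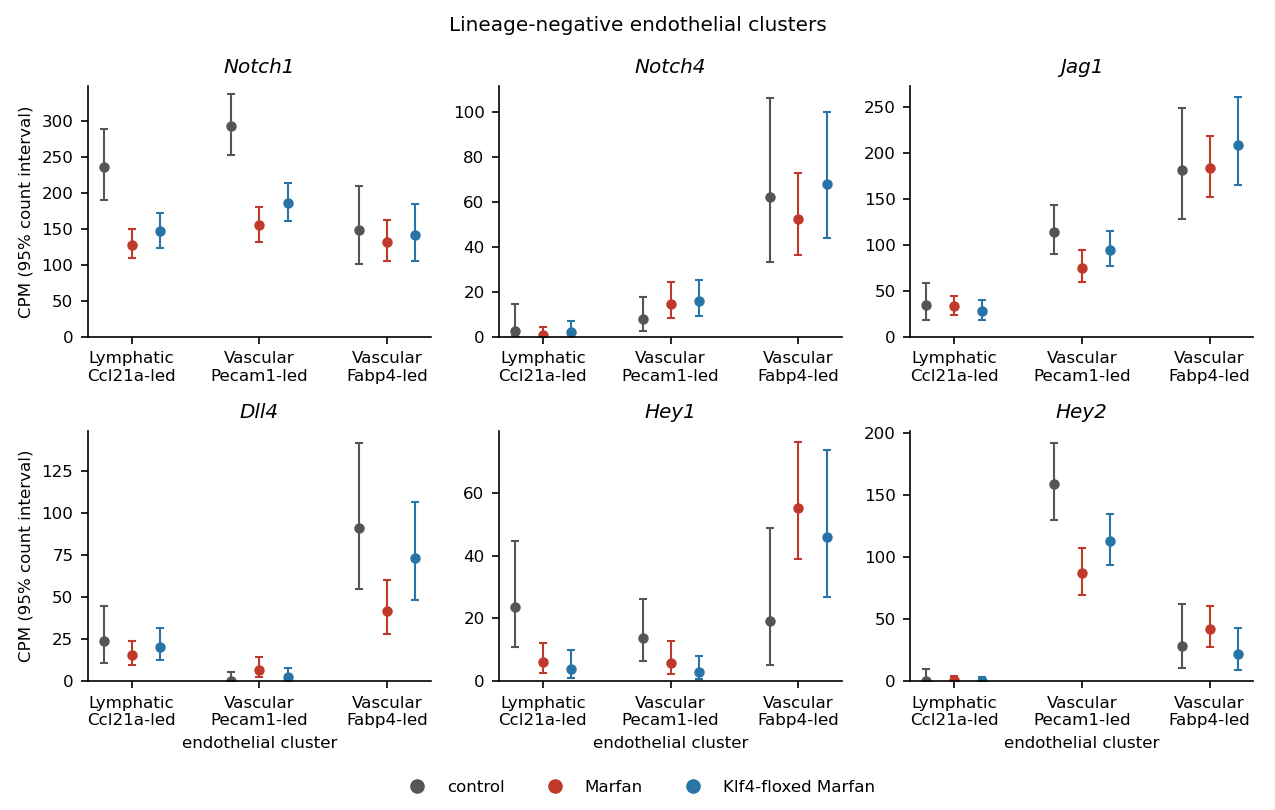
CPM of Notch1, Notch4, Jag1, Dll4, Hey1 and Hey2 in 3 endothelial clusters of the lineage-negative libraries, 1 point per library with its 95% counting interval. Notch1 in control lies above the other libraries in the Ccl21a-led and Pecam1-led clusters, Hey2 is highest in the Pecam1-led cluster, and Dll4 and Notch4 are highest in the Fabp4-led cluster.

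Of the wider list, 4 of 43 measured genes were higher and 6 lower in endothelial cells of Marfan than in control, a share near the 24.1% of all genes. The largest ratios were those of Tle2 (log2 -0.84), Aph1c (0.82) and Dtx2 (0.80), all with intervals that included 0, and Pofut1, which adds fucose to Notch receptors, at 29.7 CPM in control and 17.8 in Marfan (-0.74, interval -1.37 to -0.09). For the Klf4-floxed-labelled library, 4 of 43 were higher and 7 lower than in control, against 21.4% of all genes. Nrarp, a Notch target that dampens the pathway, was at 23.3 CPM in control, 38.7 CPM in Marfan and 46.2 CPM in the Klf4-floxed-labelled library (log2 0.99 against control, interval 0.39 to 1.63). Nrarp was thus highest where Notch1 and Hey2 were below control. Maml2, a co-activator, was at 44.1, 27.3 and 24.3 CPM, and the other 2 of largest ratio were Maml3 (-0.87) and Maml1 (0.82), both with intervals that included 0. Against Marfan, where 12.4% of all genes were apart, 1 was higher (Maml1, 1.07) and 4 lower, among them Neurl3 (-1.04), Kat2a (-0.79) and Maml3 (-0.73). Of the 16 arterial genes, 15 were measured, with 4 higher and 0 lower in Marfan than in control, a share near the 24.1% of all genes. The directions were unlike: among all 10534 genes, 826 were higher and 1710 lower. The median log2 ratio was 0.29 for the arterial list and -0.12 for all genes.

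Pericyte-like cells, an Rgs5-led cluster of the lineage-positive fraction clustered on its own, had 21, 93 and 52 cells. Notch3 was at 321, 307 and 430 CPM in them. The library labelled Klf4-floxed was above Marfan (log2 0.48, interval 0.16 to 0.81). Hes1 was at 342, 171 and 134 CPM, highest in control (log2 -1.004, interval -1.54 to -0.46, for Marfan), while Heyl was at 150, 126 and 127 CPM.

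Macrophages, 402, 1064 and 842 cells, carried Notch1, Notch2 and Hes1 but almost none of the Hey genes. Hes1 was at 54.6, 32.9 and 32.2 CPM, 1.66-fold lower in Marfan than in control (log2 -0.73, interval -0.97 to -0.50), and it was lower in 2 of 2 macrophage clusters. Notch2 was at 65.4, 44.6 and 47.6 CPM and Notch1 at 34.7, 25.8 and 28.0 CPM over the class, whose mix of clusters differed (cluster 10 held 143 of 402 cells in control and 682 of 1064 in Marfan). Within clusters 10 and 12 the Marfan ratios were log2 0.05 and -0.04 for Notch1 and -0.19 and -0.25 for Notch2, all with intervals that included 0. Hes1 was the 1 of 4 measured Notch genes apart in Marfan against control, where 11.2% of all genes were apart. It was again the 1 of 4 in the Klf4-floxed-labelled library against control (9.35% of all genes), and 0 of 4 were apart from Marfan (4.74%). Notch3 and Heyl reached at most 1.72 and 2.38 CPM.

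Cells of clusters 5 and 9, lineage-negative and unnamed because markers of more than 1 class led them (among their top genes were Prg4, Dcn and Vcan in cluster 5 and Cxcl10, Isg15 and Vcan in cluster 9), held much of the remaining signal. All unnamed clusters together held 52.4%, 44.2% and 56.5% of the lineage-negative Notch1 UMIs, at 29.1%, 29.99% and 34.3% of the cells. Hes1 was at 255 CPM in control, 167 CPM in Marfan and 185 CPM in the Klf4-floxed-labelled library in cluster 5, and at 341, 208 and 250 CPM in cluster 9. In both clusters control was highest, and the intervals did not overlap. Hey1 in cluster 9 was at 20.7, 7.10 and 6.13 CPM. Notch1 was at 63.3, 51.8 and 53.9 CPM in cluster 5 and at 71.7, 63.4 and 69.4 CPM in cluster 9.

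For each gene, the genes with the most similar pattern were found by Pearson's r of log2(CPM + 1) over 36 units of library and cell class, among 12289 genes. The units share libraries and depth, so r is a description. Dll4 was most like Gpihbp1, a protein of capillary endothelium (r = 0.98), followed by St6galnac3 and Adgrl4. Notch1 was most like Tnfsf10 (r = 0.94), then Icam2 and Gnb1. Heyl was most like Ndrg2 (r = 0.96), Foxs1 and Rgs17, and Notch3 was most like Atp1b2 (r = 0.90), Gabrq and Plekhh2. Hey2 was most like Prex2 (r = 0.89), Rras and Amigo2, Jag1 like Fzd4 (r = 0.86), Wwc2 and Bmpr2, and Hes1 like Pafah1b2 (r = 0.91), Sptbn1 and Amotl1. The weakest likenesses were those of Hey1 to Prickle2, Ankrd50 and Spin4 (r = 0.83, 0.82 and 0.82), of Notch2 to Antxr2, Stk17b and Cd44 (r = 0.81, 0.80 and 0.80), and of Notch4 to Aif1l, Klk10 and Mrtfb (r = 0.80, 0.77 and 0.76).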

How the data were processed

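Cells of the mouse aortic root were measured in 6 libraries (10x Chromium 3′ chemistry), 1 for each genotype and sort fraction. The authors deposited raw UMI counts per gene and barcode, made with Cell Ranger 6.1.2 per the file headers, and no annotation of cell types was used here. From these counts, barcodes with at least 1000 UMIs, 500 genes and at most 10% mitochondrial UMIs were kept. Doublets were removed per library with Scrublet. Where its threshold marked under 0.5% of cells, the top-scoring 0.8% per 1000 cells were removed instead. The threshold itself was used only for the Marfan lineage-negative library, where 70 of 7105 cells were removed. By top scores 163 of 4510 lineage-negative cells were removed in control and 314 of 6263 in the Klf4-floxed-labelled library. The part of this unevenness was not tested beyond the setting with doublets kept. Cells were clustered (scanpy 1.11.5, leidenalg 0.10.2) on 2000 variable genes without the 10 Notch genes and the 52 wider-list genes, with 30 components, 15 neighbours and resolution 1. Class names mean that a cluster is like that class by fixed marker lists. The rules for naming were set after the data were examined.

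UMIs were summed per library and class and given as CPM of that class with exact Poisson intervals. Ratios have exact conditional binomial intervals, and shares of cells have Clopper-Pearson intervals. A gene was measured in a comparison when the higher library had at least 5 CPM. SMCs were compared in lineage-positive libraries and all other classes in lineage-negative ones. With 1 library per group no replicate test could be run, and the script for ratios was tested on simulated data. The 10 genes and the lists were chosen with earlier results of these data known. All 10 genes were described, with up to 4 genes of the wider list per comparison and class by largest ratio, and 3 most similar genes each. One gene that this rule names is not reported here. Alternatives covered scaling, cell filters, doublets, clustering and thinning, and the closing section gives their effect. Promoter sequences were from RefSeq (GRCm38.p6).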

Additional observations from a re-analysis of the deposited data

Results flagged for a closer look

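Some Notch genes differed between libraries in opposite directions in different cell classes. The difference between classes was not tested, since each value comes from 1 library per group. Notch1 in Marfan against control had a log2 ratio of -0.87 in endothelial cells, 0.25 in fibroblasts and 0.52 in SMCs. In the Klf4-floxed-labelled library against control it was -0.62 in endothelial cells, 0.33 in fibroblasts and 0.53 in SMCs. These directions did not hold in every cluster: Notch1 in Marfan was below control in SMC clusters 0, 1 and 2 (log2 -1.14, -0.43 and -0.32, intervals including 0) and in fibroblast cluster 7 (-0.37, interval -0.70 to -0.03). Hey1 in the Klf4-floxed-labelled library against Marfan was -0.85 in endothelial cells and 0.54 in fibroblasts.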

How the results depend on the processing

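Of the recomputed log2 ratios, 875 stayed within the counting interval of the main ratio, 208 moved outside it and 2 reversed. A reversal was counted only for a gene called in the main setting, so changes of sign in other genes are not counted as such. The reversed ones were Hey1 in SMCs after thinning, at 0.0871 for Marfan and 0.0487 for the Klf4-floxed-labelled library, both against control. Heyl in SMCs was lower in Marfan than in control under 16 of 16 alternatives (-0.87 to -0.56), and Notch1 in endothelial cells under 16 of 16 (-0.94 to -0.63). Notch3 in fibroblasts was higher in Marfan under 14 of 14 (0.32 to 1.14). Counts of Notch genes apart were labelled as the same in 105 settings and as moved in 33. A count was labelled as the same when it equalled the main count or differed from it by no more than the fold used for a call. Smaller changes in count are therefore among the 105 and are not listed below. In SMCs, Marfan against control went from 2 to 0 with clusters weighted equally. The Klf4-floxed-labelled library against Marfan went from 1 to 3 with a mean over cells, to 2 with thinning, clusters weighted equally, a minimum of 500 UMIs or fractions clustered apart, and to 0 with all lineage-positive cells, without cluster 0, with a minimum of 4000 UMIs or with 20% mitochondrial UMIs. Against control it went from 1 to 2 with median-of-ratios scaling or 5% mitochondrial UMIs, and to 0 with thinning, clusters weighted equally or fractions clustered apart. In endothelial cells, Marfan against control went from 2 to 4 with thinning, 5 with clusters weighted equally and 4 with vascular cells only. The Klf4-floxed-labelled library against Marfan went from 1 to 0 with doublets kept and to 2 with fractions clustered apart or vascular cells only. Against control it went from 3 to 5 with thinning, 1 with clusters weighted equally and 0 with vascular cells only. In fibroblasts, Marfan against control went from 4 to 2 with clusters weighted equally, a minimum of 500 or 4000 UMIs, 5% or 20% mitochondrial UMIs or resolution 0.5, and to 1 with fractions clustered apart. The Klf4-floxed-labelled library against Marfan went from 0 to 1 with a mean over cells or thinning. With those fibroblast settings of UMIs, mitochondrial limit and resolution, the class also took in a cluster like the unnamed cluster 5. The cause of these shifts was not tested. Leaving out cluster 0, the single endothelial types, the equal weighting and all fibroblast alternatives were chosen after seeing the data. No paired analysis was possible because each group was 1 library, and for the same reason no replicate could be left out. The shallow Marfan lineage-positive library limits SMC values of low genes such as Hey1, Notch4 and Dll4.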
